A study of Arabidopsis thaliana with 12 samples.

Results

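Roots and shoots of wild-type Arabidopsis thaliana seedlings, supplied with Fe, were compared across the transcriptome. The comparison took the 2 wild-type root arrays with Fe and the 2 wild-type shoot arrays with Fe, chosen from the sample titles, 4 of the 12 arrays of the study. It covered 22746 of 22810 probe sets, all except the 64 Affymetrix controls. The study set the irt1 mutant, which lacks the Fe transporter IRT1 of the root surface, beside its wild type, with wild-type plants without Fe as a further condition. Its series title gives the wild type as Col-0 and the mutant as irt1-2 (pam42). Per the labels, all plants were raised on vertical agar plates with 1% sucrose, in 11 h of light and 13 h of dark, for 10 days. They were then moved for 5 days to agar washed free of contaminating metals, which held 10 µM Fe-HBED, an Fe chelate, for the plants with Fe. Organs were taken at 15 days of age and 3 h after the lights came on, so each array shows a single time of day. Arrays were single-colour and hold log2 levels made by RMA (robust multi-array average), a summary of probe brightness that carries no unit of molecules. Differences are therefore taken between organs for the same probe set. Where a level is set against the median or the quartiles of an array, that gives its place on the scale of the array and not an amount of transcript.

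Roots anchor the plant and take up water and ions. Their epidermis forms hairs, and their endodermis is sealed by Casparian strips and suberin. Shoots hold the green leaves, whose chloroplasts capture light in the photosystems, fix carbon in the Calvin cycle and recycle its by-products in photorespiration, while stomata in the epidermis let gas in and out. Photosystem and antenna proteins are made from genes of both the nucleus and the plastid genome, and their transcripts are known to be far more abundant in green tissue than in roots.

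Replicate arrays correlated with r of 0.996 in roots and 0.991 in shoots over all probe sets, and replicates differed from each other with an SD of 0.188 in roots and 0.293 in shoots. A root and a shoot array correlated with r of 0.787 to 0.803. The middle of each array lay at a similar level, with medians of 5.6 and 5.5 in roots and 5.5 and 5.4 in shoots. For the GAPDH control, the signal of the 3' probe set minus that of the 5' probe set, which grows as RNA degrades, was 0.1 on both root arrays, against 0.2 and -0.1 on the shoot arrays. For the actin control it was 1.2 and 1.0 in roots and 1.2 and 1.0 in shoots. Each list of root marker genes averaged higher on the root arrays and each list of shoot marker genes higher on the shoot arrays. Not every member followed: CR4 of a root list was lower in roots (-0.85), and TRY, PHV, CLV3 and AT1G80380 were not called. The 4 root hair genes measured averaged 5.88 and 6.0 per array in roots and 3.88 and 4.03 in shoots, and the 8 photosystem and antenna genes averaged 6.75 and 6.84 in roots and 11.8 on both shoot arrays. No array stood nearer to the other organ.

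A probe set was called when the Benjamini-Hochberg adjusted p of limma was under 0.05. Of 22746 probe sets, 12470 were called between the organs, and between 9416 and 12683 under the alternatives other than a test for at least 2-fold, where it was 4083. The 9416 came from testing fewer probe sets, those with a mean level of at least 5. In roots 7274 probe sets were higher than in shoots (32% of those tested) and 5196 were lower (22.8%), while 10276 were not called. The labels call the 2 arrays of a group biological replicates. The p-values measure only the spread between arrays of the same group, pooled over all 6 groups of the study. At a difference of 2-fold or more, 3180 were higher (14%) and 2830 lower (12.4%). Larger differences were more often lower in roots on the deposited scale, with array medians set equal and after a further quantile normalisation, but not with hybridisation controls set equal at 4-fold and 16-fold. At 4-fold or more 1280 were higher and 1588 lower in roots, at 16-fold or more 253 and 402, and at 64-fold or more 13 and 68. At 256-fold or more 6 probe sets were lower in roots and 0 were higher. Of all probe sets, 56 were at or above the upper quartile of both root arrays and at or below the lower quartile of both shoot arrays, and 117 the other way round. A further 3920 were at or above the upper quartile of all 4 arrays. In whole organs, fewer cells of a type and less RNA per cell cannot be told apart.

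**Figure D1:**
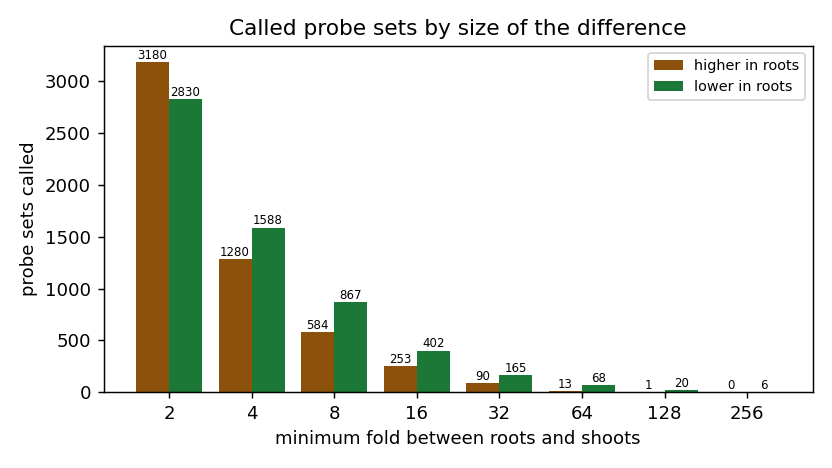
Number of probe sets called higher in roots (left, brown bar of each pair) and lower in roots (right, green bar) at a minimum fold between wild-type roots and shoots with Fe, from 2-fold to 256-fold. More probe sets were higher in roots at 2-fold, and on the deposited scale more were lower in roots from 4-fold upwards, which turned at 4-fold and 16-fold with hybridisation controls set equal.

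The split between the directions rests on how the arrays were scaled. Of called probe sets 58.3% were higher in roots on the deposited scale and 51.0% with the array medians set equal. With 18 hybridisation control probe sets, for spiked-in RNA, set equal between arrays, 77.4% were higher in roots, because the median of all log2 fold changes moved from 0 to 0.47. Under that scaling 1856 probe sets were higher and 1191 lower in roots by at least 4-fold, 376 and 269 by at least 16-fold, and 35 and 38 by at least 64-fold. Those controls averaged 8.04 and 8.79 on the root arrays, against 9.05 and 8.72 on the shoot arrays, so the shift rests largely on root replicate 1. Changes below are on the deposited scale, and calls of lower levels in roots depend most on that choice. With hybridisation controls set equal 2492 probe sets were lower in roots, against 5196 on the deposited scale, and among the genes named below such calls were lost for log2 fold changes as far from 0 as -1.10.

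Gene names were available for part of the array. Of the probe sets tested, 13436 had 1 gene with a locus in the gene table, over 13286 distinct loci. A further 503 had several genes, and 8807 carried no name here. Unnamed probe sets were called in 61.9% of cases and those with a locus in 50.3%, so much of the difference between the organs lies in probe sets not named here. The unnamed ones ranged from -9.5 to 6.80 in log2 fold change, roots over shoots.

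**Figure D2:**
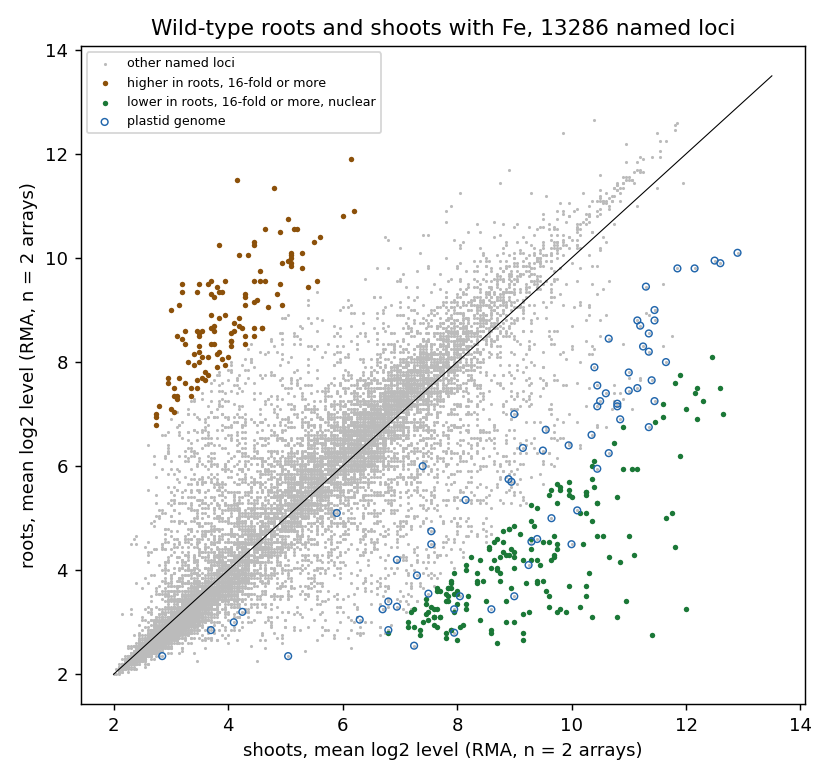
Mean log2 level in wild-type roots with Fe (vertical) against shoots with Fe (horizontal) for named loci, each the mean of 2 arrays. Brown points are called and at least 16-fold higher in roots, green points are nuclear loci at least 16-fold lower in roots, blue rings are genes of the plastid genome, and the line marks equal levels. Both sets of extremes lie mainly at low levels in the other organ, and the 69 plastid genes all lie below the line.

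The loci at both ends of the range were chosen by their log2 fold changes, and their values on these 4 arrays are a description. The 15 named loci with the highest log2 fold changes lay between 5.8 and 7.35, and only GSTU25, a glutathione S-transferase gene, has a symbol of its own in the gene table used. Below AT3G01190 and AT4G15390 came AT4G26010, with 10.3 and 10.2 in roots, against 4.0 and 3.7 in shoots (log2 fold change 6.4 ± 0.14 SE, adjusted p = 1.53e-11). AT3G25930 had 9.3 and 9.7 in roots, against 3.4 and 3.0 in shoots (6.30 ± 0.17, adjusted p = 6.94e-11). AT2G21045 reached 10.5 and 10.6 in roots, against 4.8 and 4.5 in shoots (5.90 ± 0.14, adjusted p = 3.13e-11). Each was below the array median in shoots and above the upper quartile in roots. The others of these 15 were AT5G66390, AT5G43520, AT3G01260, AT1G52070, AT4G13580, AT5G14650, AT5G37990, AT1G22440 and AT4G22212. AT5G37990 had the widest spread of them, with 10.3 and 9.8 in roots, against 5.1 and 3.3 in shoots.

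The 15 named loci with the lowest log2 fold changes ran from -8.75 to -6.55, and 5 of them have a symbol. Below ECS1 and AT3G05730 came AT1G23130, with 3.1 on both root arrays, against 10.7 and 10.9 in shoots (-7.70 ± 0.12, adjusted p = 3.66e-12). AT1G09310 had 3.2 and 3.6 in roots, against 11.1 and 10.8 in shoots (-7.55 ± 0.17, adjusted p = 2.08e-11). PIFI, a nuclear gene for a chloroplast protein of electron flow around photosystem I, had 3.0 and 3.2 in roots, against 10.2 and 10.5 in shoots (-7.25 ± 0.20, adjusted p = 5.48e-11). All 3 lay at or close to the lower quartile of the arrays in roots. SBPASE, PRK and HPR, described with carbon fixation below, also belong here, beside AT1G29670, AT1G22690, AT1G66100, AT2G41090, AT3G62550, AT2G10940 and AT5G48490. On the 8 arrays of the other plants, whose levels did not enter these log2 fold changes, root and shoot arrays did not overlap for any of the 30. The share of all probe sets without overlap there was not counted. Of all probe sets called at 16-fold or more, 252 of 253 higher and 402 of 402 lower were called the same way in both other contrasts. The 30 are therefore not set apart by this.

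**Figure D3:**
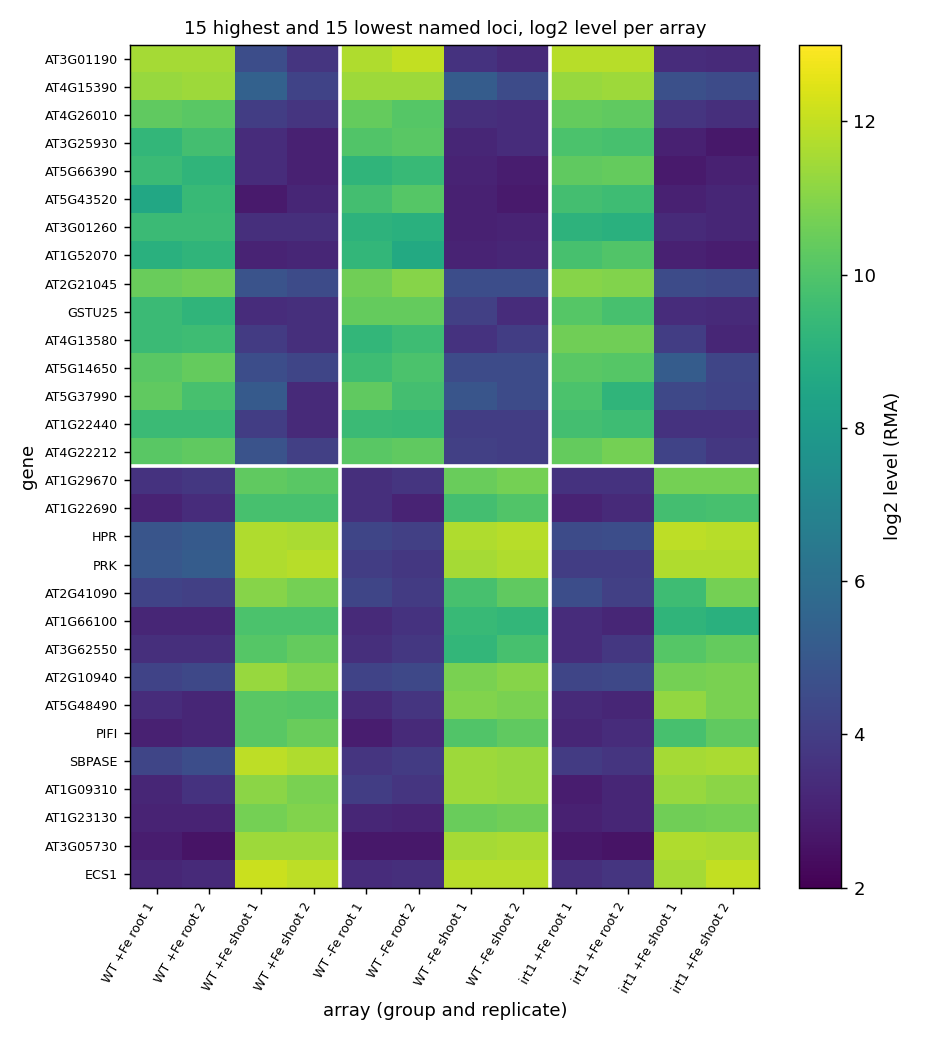
Log2 level (colour, RMA) of the 15 named loci highest in roots (upper block) and the 15 lowest in roots (lower block) on each of the 12 arrays, with root arrays left of shoot arrays within each condition. The first 4 columns are the arrays compared here, and the same rows are bright in roots or in shoots in plants without Fe and in irt1.

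Nuclear photosystem and antenna genes were lower in roots without exception among those measured. Of 56 listed, 8 were measured and 8 were lower, beside 22.8% of all probe sets. Their log2 fold changes were -5.70 to -4.20 with a median of -5.0, beside a median of 0 over all probe sets. PSBY, a small subunit gene of photosystem II, had 6.2 on both root arrays, against 11.9 on both shoot arrays (-5.70 ± 0.10, adjusted p = 6.87e-12). PSAE-1, for a stromal subunit of photosystem I, had 6.9 and 7.1 in roots, against 12.7 and 12.6 in shoots (-5.65 ± 0.12, adjusted p = 1.02e-11). PSAN, for a lumenal subunit of photosystem I, had 6.8 and 7.0 in roots, against 12.1 and 12.3 in shoots (-5.30 ± 0.15, adjusted p = 8.79e-11). These genes read above the array median in roots and close to the top of the scale in shoots. The 3 genes for the CP29 antenna protein, LHCB4.1, LHCB4.2 and LHCB4.3, had log2 fold changes of -4.35, -5.05 and -4.95, and in roots LHCB4.3 stood at 4.4 and 4.0, against 9.3 and 9.0 in shoots. ATPC1, for a subunit of the chloroplast ATP synthase, had -4.20 ± 0.11.

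Other genes of thylakoid function followed the same direction. Among 21 loci whose names speak of photosystems, thylakoids or chlorophyll, of which 7 are also on a list, 20 were lower in roots and 1 was higher, with a median of -4.35. They include TROL, which tethers ferredoxin-NADP reductase (-5.15 ± 0.15), the thylakoid ascorbate peroxidase gene TAPX (-5.10 ± 0.16), and the photosystem II assembly genes LPA19, LPA2 and LPA1, at -2.85, -2.80 and -2.05. The exception was TAAC, for an ATP carrier of the thylakoid, with 7.1 and 6.9 in roots, against 6.6 and 6.5 in shoots. It was higher in roots by 0.45 ± 0.14 (adjusted p = 0.0196), and it was not called without root replicate 1 (adjusted p = 0.143) or shoot replicate 2 (adjusted p = 0.094). The chloroplast NADH dehydrogenase-like complex, which recycles electrons around photosystem I, and the CRR genes for its assembly and RNA editing were lower in 8 of 8 cases, with a median of -3.88. NdhL had 2.6 and 2.7 in roots, against 9.0 and 9.3 in shoots (-6.50 ± 0.15, adjusted p = 2.58e-11). Thioredoxins, small redox carriers of which several activate chloroplast enzymes, were lower in 5 of 8 cases and higher in 1. TRXF2, of the chloroplast, had 5.6 on both root arrays, against 8.9 and 9.0 in shoots (-3.35 ± 0.11, adjusted p = 2.75e-10). TY1 was the member higher in roots, with 7.1 on both root arrays, against 5.3 and 5.5 in shoots (1.70 ± 0.11, adjusted p = 8.81e-08), while its relative ty2 had -3.10 ± 0.12. The pair therefore lay in opposite directions. Among all probe sets 22.8% were lower in roots, and 12.4% by at least 2-fold. All 69 measured genes of the plastid genome were lower in roots, 66 of them by at least 2-fold, with a median of -3.25. They ran from psbA and atpF at -5.50 to ndhF at -0.50.

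Carbon fixation and photorespiration gave the lowest median of the lists. Of 37 listed genes 7 were measured, 6 were lower in roots and 0 were higher, with a median of -6.25. Over all probe sets 22.8% were lower and 32% higher. SBPASE, the Calvin cycle enzyme sedoheptulose-bisphosphatase, had 4.3 and 4.6 in roots, against 11.9 and 11.7 in shoots (-7.35 ± 0.14, adjusted p = 7.75e-12). PRK, phosphoribulokinase, had 5.0 and 5.2 in roots, against 11.7 and 11.8 in shoots (-6.65 ± 0.12, adjusted p = 6.87e-12). HPR, the peroxisomal hydroxypyruvate reductase of photorespiration, had 4.9 and 5.1 in roots, against 11.7 and 11.6 in shoots (-6.65 ± 0.12, adjusted p = 6.87e-12). Levels in roots were below the array median and those in shoots close to the top. LrgB, the plastid glycolate and glycerate carrier PLGG1, had -6.25 ± 0.16, and RCA, Rubisco activase, -5.10 ± 0.13. The listed locus AT1G11860 differed less, with 8.9 and 9.0 in roots, against 11.3 on both shoot arrays (-2.35 ± 0.11, adjusted p = 5.73e-09). The listed locus AT1G80380 was not called, with 8.9 and 9.6 in roots, against 9.6 and 9.7 in shoots (adjusted p = 0.119).

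Within the synthesis of chlorophyll and carotenoids the log2 fold changes ranged from -4.60 to -0.15. Of 26 listed genes 6 were measured and 5 were lower in roots (22.8% over all probe sets), with a median of -2.38. CHLI2, a subunit of magnesium chelatase at the start of the chlorophyll branch, had 3.7 and 3.8 in roots, against 8.3 and 8.4 in shoots (-4.60 ± 0.10, adjusted p = 1.46e-11). PORB, protochlorophyllide reductase, had 7.3 on both root arrays, against 10.7 and 11.1 in shoots (-3.60 ± 0.21, adjusted p = 2.80e-08), and CHLM, the methyltransferase between them, had -3.20 ± 0.15. GSA1, which makes the precursor of both haem and chlorophyll, and the lycopene cyclase gene LYC of carotenoids each had -1.55. HEMA2, a glutamyl-tRNA reductase gene ahead of both branches, was not called, with 6.7 and 6.6 in roots, against 6.8 on both shoot arrays (adjusted p = 0.290).

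Regulators of the shoot epidermis and of leaf form were lower in roots or not called. The shares over all probe sets were 22.8% lower and 32% higher in roots. The 3 bHLH genes that act in sequence in the stomatal lineage were lower. SPCH, which starts it, had 3.3 and 3.6 in roots, against 5.9 and 5.6 in shoots (-2.30 ± 0.22, adjusted p = 2.47e-06). MUTE, the next, had 2.6 on both root arrays, against 3.8 and 4.2 in shoots (-1.40 ± 0.15, adjusted p = 7.46e-06), and FMA, which sets guard cell identity, had 3.5 and 3.4 in roots, against 5.9 on both shoot arrays (-2.45 ± 0.16, adjusted p = 5.83e-08). In shoots MUTE was below the array median and SPCH and FMA were slightly above it. STOMAGEN, a peptide gene that promotes stomata and is on none of the lists, was picked after its values were seen. It had 2.7 and 3.0 in roots, against 7.3 and 7.4 in shoots (-4.50 ± 0.15, adjusted p = 3.04e-10). Of 4 measured regulators of the shoot meristem and leaf, YAB5 and YAB3, of the YABBY family of leaf polarity genes, were lower, at -3.15 ± 0.12 and -3.05 ± 0.13. PHV and CLV3 were not called (-0.35 and -0.20, adjusted p = 0.0908 and 0.131). Of the 30 and 31 genes on these shoot lists, 3 and 4 had a named probe set.

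Root hair genes lay in the opposite direction. Of 32 listed 4 were measured, 3 were higher in roots and 0 were lower, beside 32% and 22.8% of all probe sets. EXPA7, an expansin of root hair walls, had 8.2 and 7.9 in roots, against 4.3 and 4.5 in shoots (3.65 ± 0.16, adjusted p = 2.70e-09). EXPA18, its close relative, had 8.0 and 7.7 in roots, against 4.2 and 4.5 in shoots (3.5 ± 0.17, adjusted p = 5.13e-09). Both genes lay above the upper quartile of the arrays in roots and below the array median in shoots. XTH26, a xyloglucan-modifying enzyme of root hairs, was below the array median in both organs with Fe, at 4.0 and 4.1 in roots, against 3.1 and 3.2 in shoots (0.90 ± 0.13, adjusted p = 8.58e-05). TRY, the listed gene for a small MYB protein, was not called (-0.10, adjusted p = 0.595).

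Endodermis and meristem genes were measured in small number. Of 29 Casparian strip and suberin genes only GSO1 was measured, the receptor that watches over the seal of the Casparian strip. It had 7.3 on both root arrays, against 4.6 and 4.8 in shoots (2.60 ± 0.16, adjusted p = 3.68e-08). FACT, which forms the caffeate esters of suberin-associated waxes and was picked after its values were seen, had 8.4 and 8.6 in roots, against 4.6 and 4.3 in shoots (4.05 ± 0.15, adjusted p = 5.08e-10). Of 28 regulators of root meristem, cap and lateral roots 7 were measured, 6 were higher in roots and 1 was lower, with a median of 0.90. The shares over all probe sets were 32% and 22.8%. LBD16, which acts in lateral root founder cells, had 4.6 on both root arrays, against 3.0 and 3.6 in shoots (1.3 ± 0.18, adjusted p = 7.19e-05). Its levels were below the array median in both organs. JKD, BBM and LBD29 had log2 fold changes of 0.90, 0.65 and 0.50. CR4, a receptor kinase that acts in the epidermis of both organs, was lower in roots by -0.85 ± 0.16 (adjusted p = 0.000802), and was not called with hybridisation controls set equal (-0.38, adjusted p = 0.316).

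Glucosinolates are defence compounds of the cabbage family, and beta-glucosidases called myrosinases release their toxic products. Of 35 listed genes 7 were measured, 4 were higher in roots and 1 was lower, beside 32% and 22.8% of all probe sets. PYK10, the beta-glucosidase of the endoplasmic reticulum bodies of roots, was above the upper quartile of the arrays in both organs, with 12.7 and 12.6 in roots, against 10.6 and 10.2 in shoots (2.25 ± 0.14, adjusted p = 3.70e-08). NAI2, needed for these bodies to form, had 10.3 on both root arrays, against 8.2 and 8.0 in shoots (2.2 ± 0.12, adjusted p = 2.01e-08). The pair of ER body genes thus differed by similar amounts. UGT74B1, a glucosyltransferase of the core glucosinolate pathway, had 8.4 and 8.1 in roots, against 7.5 and 7.0 in shoots (1.00 ± 0.20, adjusted p = 0.000911), and was not called in a model of the 4 arrays alone (adjusted p = 0.0567). Of the glucosinolate transporters GTR2 was higher in roots (0.60 ± 0.15, adjusted p = 0.00462) and GTR1 was not called (0.15). The listed locus AT2G31790 was lower by -0.50 ± 0.18 (adjusted p = 0.0367), but was not called without root replicate 2 (adjusted p = 0.238), without shoot replicate 1 (adjusted p = 0.213) or with hybridisation controls set equal (adjusted p = 0.935). In root triterpene synthesis the 1 measured locus of 10, AT5G47980, had 6.1 and 5.3 in roots, against 3.4 and 3.7 in shoots (2.15 ± 0.29, adjusted p = 5.14e-05). The cell division list had 1 measured gene of 24, the Aurora kinase gene AUR1, which was not called (0.25). The lists of nutrient ion transport (49 genes), aquaporins (35) and seed storage and floral identity (16) had 0 members with a named probe set and were not analysed here.

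Families were also defined by gene names. There were 28 families with at least 8 measured loci. In 26 of them members were called in both directions, and in 19 of them members were called in both directions by at least 2-fold. Over all probe sets 32% were called higher and 22.8% lower, and 14% and 12.4% by at least 2-fold, so members in both directions set no family apart. Each family count, above and below, is to be read beside these shares, which are repeated for only some families. The NDH and CRR genes and the glutamate receptors had lower members and none higher. Family medians lay near 0 in most cases, and 7 of the 28 medians changed sign with hybridisation controls set equal and 2 with array medians set equal, so the text gives counts and members in preference to a family direction.

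**Figure D4:**
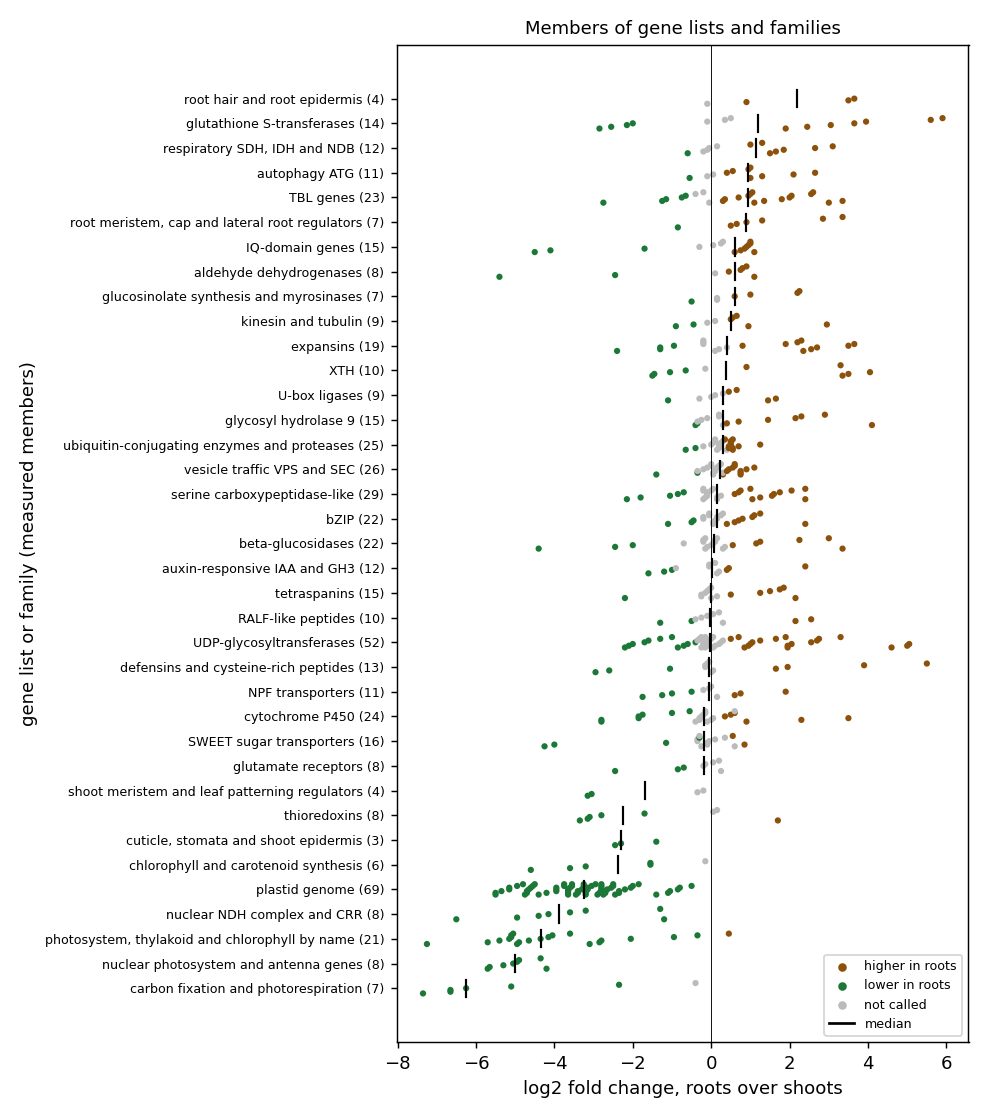
Log2 fold change, wild-type roots over shoots with Fe, of each measured member (point) of the gene lists and families with at least 3 members and of the plastid genome, with the median as a black bar. Brown points were called higher in roots, green points lower and grey points not called. The photosynthesis groups lie far to the left at the bottom, while most families hold brown and green points side by side.

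In the families of enzymes that loosen and remodel the cell wall, the member farthest from 0 was higher in roots. Of 10 XTH genes, which cut and rejoin xyloglucan, 5 were higher in roots and 4 lower. XTH19 had 8.8 and 8.5 in roots, against 5.0 and 4.2 in shoots (4.05 ± 0.21, adjusted p = 8.24e-09), and its chromosomal neighbour XTH18 had 3.30 ± 0.17. XTH21 and XTH20 followed at 3.5 and 3.35, whereas XTH32 had 6.5 and 6.2 in roots, against 8.0 and 7.7 in shoots (-1.50 ± 0.18, adjusted p = 1.49e-05). Of 19 expansins 9 were higher and 4 lower. EXPA8, the lowest of them, had 4.4 and 4.5 in roots, against 6.9 and 6.8 in shoots (-2.40 ± 0.14, adjusted p = 3.45e-08). EXPB2, EXPA15 and EXPA4 were higher in roots by 2.70, 2.55 and 2.35. Of 15 endoglucanases of glycosyl hydrolase family 9, 7 were higher and 2 lower. GH9C1 had 7.9 and 7.6 in roots, against 3.4 and 3.9 in shoots (4.1 ± 0.18, adjusted p = 1.9e-09). GH9B12, the lower extreme of that family, was called at -0.40 ± 0.12 (adjusted p = 0.0133), but turned to 0.0694 with hybridisation controls set equal and was not called without either root array or without shoot replicate 2. TBL genes, of which several acetylate wall polysaccharides, were higher in roots in 15 of 23 cases and lower in 5, with a median of 0.95 that kept its sign under each scaling (0.85 to 1.42). TBL21 had 6.7 and 6.4 in roots, against 2.8 and 3.6 in shoots (3.35 ± 0.23, adjusted p = 1.33e-07), and TBL45 had 6.1 and 5.9 in roots, against 8.7 and 8.8 in shoots (-2.75 ± 0.11, adjusted p = 1.28e-09). These members lay at opposite ends of the family, each with no overlap.

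Enzymes that conjugate small molecules were split as well, with their largest differences towards roots. Glutathione S-transferases, which attach glutathione to reactive compounds, were higher in roots in 7 of 14 cases and lower in 4, all 11 by at least 2-fold. GSTU25 had 9.5 and 9.2 in roots, against 3.4 and 3.5 in shoots (5.90 ± 0.20, adjusted p = 2.53e-10). GSTU22 had 9.3 on both root arrays, against 3.7 on both shoot arrays (5.6 ± 0.13, adjusted p = 2.08e-11). GSTU18 had 5.2 and 4.6 in roots, against 7.9 and 7.6 in shoots (-2.85 ± 0.25, adjusted p = 9.91e-07). Genes lying in a row on a chromosome did not share a direction throughout. GSTU23, GSTU22, GSTU21 and GSTU20 are consecutive, and their log2 fold changes were 2.45, 5.6, 0.50 and -2.15, with GSTU21 not called.

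UDP-glycosyltransferases, which add sugars to hormones, phenolics and other small molecules, formed the largest family with 52 loci, of which 19 were higher in roots and 11 lower, close to the shares over all probe sets (32% and 22.8%). UGT71C1 had 8.6 and 8.5 in roots, against 3.7 and 3.3 in shoots (5.05 ± 0.17, adjusted p = 2.76e-10). UGT76B1, whose enzyme glucosylates the immune signals isoleucic acid and salicylic acid, had 9.0 and 8.7 in roots, against 4.3 and 3.4 in shoots (5.00 ± 0.35, adjusted p = 1.47e-07). UGT72E2, which glucosylates lignin precursors, had 9.6 and 9.4 in roots, against 4.9 on both shoot arrays (4.60 ± 0.17, adjusted p = 4.61e-10). These 3 were at the upper end of the family, and the related UGT72E3 had 2.75 ± 0.14. The lowest was UGT78D1, a flavonol rhamnosyltransferase, with 5.7 and 4.1 in roots, against 7.2 and 7.0 in shoots (-2.20 ± 0.55, adjusted p = 0.00459). Its root arrays differed from each other by more than those of any gene named so far, and it was not called without root replicate 2 (adjusted p = 0.0646) or in a model of the 4 arrays alone (adjusted p = 0.0895).

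Cytochrome P450 genes, whose enzymes oxidise many plant metabolites, were represented mainly by the CYP71B subfamily. Of 24 loci 6 were higher in roots and 7 lower. CYP71B37 had 6.7 and 6.6 in roots, against 3.4 and 2.9 in shoots (3.5 ± 0.17, adjusted p = 4.49e-09). CYP71B22 had 3.9 and 3.8 in roots, against 6.8 and 6.5 in shoots (-2.80 ± 0.18, adjusted p = 5.17e-08). CYP71B34, CYP71B35, CYP71B36 and CYP71B37 are consecutive genes, and the first 3 were lower in roots, at -1.0, -1.75 and -1.85, next to the highest member of the family. Beta-glucosidases were higher in roots in 6 of 22 cases and lower in 3, both below the shares over all probe sets. BGLU15 had 8.7 and 8.6 in roots, against 5.3 on both shoot arrays (3.35 ± 0.11, adjusted p = 1.60e-10), and BGLU33 had 3.1 and 2.9 in roots, against 7.5 and 7.3 in shoots (-4.40 ± 0.12, adjusted p = 6.47e-11). The neighbours BGLU45 and BGLU46 were both higher in roots, at 1.15 and 3.00. Serine carboxypeptidase-like genes, related to peptidases and acyltransferases, were higher in roots in 12 of 29 cases and lower in 5 (32% and 22.8% over all probe sets), between scpl40 at 2.4 ± 0.17 and scpl42 at -2.15 ± 0.13.

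Small secreted peptides included strong differences in both directions. Of 13 defensins and related cysteine-rich peptides 4 were higher in roots and 3 lower, near the shares over all probe sets. PDF2.5 had 9.0 and 9.5 in roots, against 4.1 and 3.4 in shoots (5.50 ± 0.27, adjusted p = 5.19e-09), and PDF2.1 had 3.90 ± 0.24. PDF1.2b, of the defensin group known to respond to jasmonate and ethylene, had 3.9 and 4.0 in roots, against 7.8 and 6.0 in shoots (-2.95 ± 0.62, adjusted p = 0.00148). Its shoot arrays differed by 1.8, and in a model of the 4 arrays alone it was not called (adjusted p = 0.0623). The probe set of PDF1.2, a near-identical copy, had -2.60 ± 0.36, and cross-hybridisation between them was not tested. RALF-like peptides, which signal through receptor kinases of the cell surface, were higher in roots in 2 of 10 cases and lower in 2. RALFL32 had 9.4 and 9.7 in roots, against 7.0 on both shoot arrays (2.55 ± 0.18, adjusted p = 1.22e-07), and RALFL34 had 8.2 on both root arrays, against 9.6 and 9.4 in shoots (-1.30 ± 0.13, adjusted p = 3.53e-06).

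Regulatory families held single members far from 0. Of 22 bZIP transcription factors 8 were higher and 3 lower (32% and 22.8% over all probe sets). bZIP44 had 8.2 and 8.4 in roots, against 6.1 and 5.7 in shoots (2.4 ± 0.16, adjusted p = 1.14e-07), and BZIP34 had -1.10 ± 0.20 and was not called with hybridisation controls set equal (adjusted p = 0.0879). Among 12 auxin-responsive IAA and GH3 genes 3 were higher and 3 lower. GH3.17, which conjugates auxin to glutamate, had 8.8 and 8.7 in roots, against 6.5 and 6.2 in shoots (2.4 ± 0.12, adjusted p = 9.31e-09), whereas GH3.3, of the same enzyme family, had 4.8 and 4.7 in roots, against 6.4 and 6.3 in shoots (-1.60 ± 0.24, adjusted p = 0.000104). Of 15 IQ-domain genes, for calmodulin-binding proteins of microtubules and membranes, 8 were higher in roots, with IQD23 the highest at 1.1 ± 0.18, and 3 were lower by more. iqd21 had 3.1 on both root arrays, against 7.5 and 7.7 in shoots (-4.50 ± 0.13, adjusted p = 1.01e-10), and IQD24 had -4.10 ± 0.12. IQD23 was not called in a model of the 4 arrays alone (adjusted p = 0.055). Of 15 tetraspanins, membrane proteins that organise cell surface domains, 6 were higher, beside 32% of all probe sets, with TET2 at 2.15 ± 0.13, and TET10 was lower at -2.20 ± 0.17. Of 8 glutamate receptor-like channels 3 were lower and 0 higher, with GLR2.7 at -2.45 ± 0.19.

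The transporter families measured were the SWEET sugar carriers and the NPF transporters. As in 26 of the 28 families, each had members called in both directions. Over all probe sets 32% were called higher in roots and 22.8% lower. Of 16 SWEET loci 4 were lower in roots and 2 higher, and 10 were not called. SWEET11, which exports sucrose for phloem loading in leaves, had 5.8 and 5.3 in roots, against 9.8 on both shoot arrays (-4.25 ± 0.17, adjusted p = 9.75e-10). SWEET1, a glucose carrier, had 4.4 and 4.1 in roots, against 8.2 and 8.3 in shoots (-4.0 ± 0.21, adjusted p = 1.18e-08). SWEET16, a carrier of the vacuole membrane, had 6.8 and 6.9 in roots, against 5.9 and 6.1 in shoots (0.85 ± 0.15, adjusted p = 0.000437). SWEET11 lay close to the array median in roots and above the upper quartile in shoots. Of 11 NPF transporters, a family that carries nitrate, peptides and hormones, 3 were higher and 4 lower, between AT1G72125 at 1.9 ± 0.14 and AT2G26690 at -1.75 ± 0.11.

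Mitochondrial respiration and aldehyde metabolism were measured through enzymes known by name. Of 12 loci for succinate dehydrogenase, isocitrate dehydrogenase and the NDB alternative dehydrogenases, 7 were higher in roots, all by at least 2-fold, and 1 was lower, with a median of 1.15 that stayed between 1.05 and 1.62 under each scaling. SDH1-2, 1 of the 2 genes for the flavoprotein subunit of succinate dehydrogenase, had 6.1 on both root arrays, against 3.0 on both shoot arrays (3.1 ± 0.11, adjusted p = 2.79e-10). SDH1-1, the other, had 10.0 and 9.7 in roots, against 8.2 and 7.8 in shoots (1.85 ± 0.16, adjusted p = 9.04e-07). NDB2 had 2.65 ± 0.17, while NDB1 had -0.60 ± 0.14 and was not called with hybridisation controls set equal (adjusted p = 0.730). Of 8 aldehyde dehydrogenases 5 were higher and 2 lower. ALDH11A3, a glyceraldehyde-3-phosphate dehydrogenase of the cytosol that uses NADP, had 4.9 and 5.0 in roots, against 10.3 and 10.4 in shoots (-5.40 ± 0.13, adjusted p = 2.75e-11), and ALDH7B4, known from stress responses, had 9.5 and 9.4 in roots, against 8.2 and 8.5 in shoots (1.1 ± 0.12, adjusted p = 9.61e-06).

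Families of general cell function held more members called higher than lower in roots, as did all probe sets (32% against 22.8%), and the size of that excess depends on the scaling. Of 11 autophagy genes 8 were higher in roots and 1 lower, with a median of 0.95 (0.85 to 1.42 under each scaling). ATG8H, for a small ubiquitin-like protein of the autophagosome membrane, had 8.6 and 8.5 in roots, against 5.9 on both shoot arrays (2.65 ± 0.15, adjusted p = 2.66e-08). Its family member ATG8E had 8.4 and 8.5 in roots, against 8.8 and 9.2 in shoots (-0.55 ± 0.16, adjusted p = 0.0108), and was not called without root replicate 1 (adjusted p = 0.0694), without shoot replicate 2 (adjusted p = 0.113) or with hybridisation controls set equal (adjusted p = 0.832). Of 25 ubiquitin-conjugating enzymes and ubiquitin proteases 11 were higher and 2 lower, with only UBC30 reaching 2-fold, at 1.25 ± 0.13. UBC19, at the other end, had -0.65 ± 0.10, and with hybridisation controls set equal it was not called (adjusted p = 0.632). Of 9 U-box ubiquitin ligases 4 were higher and 1 lower, and the closely related PUB22 and PUB23 had 1.65 and 1.45. PUB26 was lower by -1.10 ± 0.15, and with hybridisation controls set equal it was not called (adjusted p = 0.0879). Of 26 VPS and SEC genes of vesicle traffic 11 were higher and 2 lower, between AT3G63460 at 1.1 ± 0.15 and VPS9B at -1.40 ± 0.22. Of 9 kinesin and tubulin genes 5 were higher and 2 lower. TUB1, a beta-tubulin, had 9.1 and 9.0 in roots, against 6.0 and 6.2 in shoots (2.95 ± 0.12, adjusted p = 1.54e-09), and TUA1, an alpha-tubulin, had -0.90 ± 0.14 and was not called with hybridisation controls set equal (adjusted p = 0.257).

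The same contrast in the other plants of the study uses arrays that the comparison above did not. Of the 3180 probe sets higher in roots by at least 2-fold, 3121 were also called higher in roots in wild type without Fe (background 28.5%), 3117 in irt1 with Fe (28.5%), and 3090 in both (97.2%). Of the 2830 lower in roots by at least 2-fold, 2760 were called lower in wild type without Fe (22.5%), 2779 in irt1 (24.1%), and 2745 in both (97.0%). At 16-fold or more it was 252 of 253 and 402 of 402 in both. Calls share 1 estimate of the spread per probe set across all these contrasts. Among calls of any size the share was smaller, at 73.4% of those higher in roots and 76.7% of those lower. A called difference in the opposite direction in wild type without Fe or in irt1 was found for 34 probe sets higher in roots and 20 lower in roots. All 105 genes chosen by the naming rule kept the sign of their log2 fold change in both other contrasts, which asks for less than a call. Opposite calls were rare among all called probe sets, at 34 of 7274 and 20 of 5196, so this does not set the 105 apart.

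**Figure D5:**
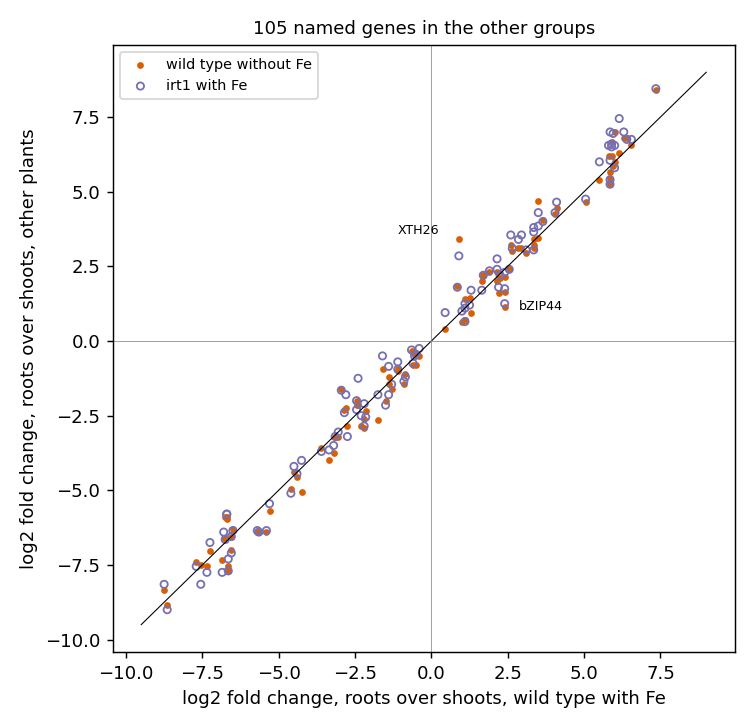
Log2 fold change, roots over shoots, of the 105 genes named by rule in wild type without Fe (filled orange) and in irt1 with Fe (open purple) against that in wild type with Fe. The line marks equal values. Points follow the line, with XTH26 above it and bZIP44 below it in both.

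The difference between organs was itself tested against that in the other plants. It differed in wild type without Fe for 304 of the 7274 probe sets higher in roots with Fe and for 252 of the 5196 lower (background 3.06%), and in irt1 for 223 and 160 (background 2%). These sets were chosen on the wild-type arrays with Fe, which the test also uses, so nothing is read from their share. CYP71B5, picked after its values were seen, had 3.3 and 3.1 in roots, against 6.2 and 5.8 in shoots with Fe (-2.80 ± 0.20, adjusted p = 1.56e-07). In irt1 the difference was -2.30, and in wild type without Fe it was 1.5. The difference between the wild-type contrasts, without Fe minus with Fe, was 4.3 (adjusted p = 1.38e-05). LHCB4.3, at -4.95 with Fe, had -3.0 in wild type without Fe and -2.65 in irt1 (differences of 1.95 and 2.3, adjusted p = 0.00122 and 0.000554), while LHCB4.1 had -5.10 and -4.80 there and LHCB4.2 had -6.10 and -5.95. The CP29 genes were not tested against each other.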

How the data were processed

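Per the submitters' processing notes, the deposited values are log2 expression values made by the authors with RMA (background correction, quantile normalisation and probe summary). Its version is not given in the sources used here, nor whether both organs entered 1 normalisation. Values are rounded to 1 decimal, so a log2 fold change between groups of 2 arrays moves in steps of 0.05. Depth does not apply to arrays, and their number limits the precision. Groups and replicate numbers came from the sample titles. Comparisons used limma 3.58.1 in R 4.3.3 on all 12 arrays with 1 mean per group (6 residual degrees of freedom), eBayes, two-sided tests and Benjamini-Hochberg adjustment over 22746 probe sets; SE and adjusted p come from this model, which was tested on simulated data. No exact permutation test was run, since with 2 and 2 arrays its smallest two-sided p is 0.333. Sequences and genome positions are not used here.

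Probe sets were named through the platform annotation and a table of RefSeq genes (assembly TAIR10.1), used for names and gene order; a bare locus had no symbol there. The 14 gene lists (438 loci, 49 measured) and the families, read from symbols or synonyms, count 1 probe set per locus, that with the highest mean. Named genes are the 15 highest and 15 lowest called loci without overlap, up to 3 called members at each end of a list and 1 at each end of a family, 105 in all; 1 family and the list members in it are not reported here. Other genes are named as members of a list or family, or were picked after their values were seen. The members and lists were chosen with earlier results of these data known. Alternatives changed the spread, the scale, the filter, the threshold and the arrays used.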

Additional observations from a re-analysis of the deposited data

Results flagged for a closer look

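Organ differences of some named genes themselves differed between plants, by a test of the difference (limma adjusted p under 0.05 over all probe sets). Values are differences of log2 fold changes, roots over shoots, in wild type without Fe minus wild type with Fe, and in irt1 minus wild type, both with Fe. Both share the wild-type arrays with Fe. XTH26 had 2.50 without Fe and 1.95 in irt1, SWEET16 had 1.00 and 0.95, and AT1G66100, which is lower in roots, had 0.80 and 0.90. bZIP44, which is higher in roots, had -1.25 without Fe and -1.15 in irt1. In genes lower in roots, a negative value is a wider organ difference. Among these, ALDH11A3 had -1.0 and -0.95, PRK -1.05 and -1.05, PSAE-1 -0.75 and -0.75, and PSBY -0.70 and -0.65. Only the difference without Fe was called for EXPA18 (1.2) and GH3.17 (-0.75), both higher in roots, and AT2G26690 (-0.90) and HPR (-0.90), both lower. Only that in irt1 was called for AT5G66390 (1.3), higher in roots, and EXPA8 (1.15), lower in roots. Whether the differences without Fe and in irt1 are unequal was not tested.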

How the results depend on the processing

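The total of 12470 called probe sets stayed between 9416 and 12683 under all alternatives except limma's treat with a minimum log2 fold change of 1, where it was 4083, with 1991 higher and 2092 lower in roots; that test asks for a larger difference. With hybridisation controls set equal, 8549 were higher and 2492 lower in roots, and 5776 were higher by at least 2-fold. With array medians set equal it was 6261 higher and 6021 lower, in a model of the 4 arrays alone 6396 and 4718, and with only probe sets of a mean level of at least 5, 5911 and 3505. That last filter, which gave the total of 9416, left fewer probe sets to test. Leaving out 1 array gave totals of 10514 to 11799. The replicate numbers are not stated to pair plants, and with 2 pairs the correlation of deviations (0.141) cannot show it; with the replicate block 7388 were higher and 5295 lower. Of the 105 named genes, 1 turned direction, GH9B12 (0.0694 with hybridisation controls set equal), and 8 more lost their call there. In the model of the 4 arrays alone 6 lost it, at an adjusted p under 0.01 4, with 1 array left out 1 to 3, and under treat 23; the cause was not tested. Under the level minimum 86 were measured, and all 86 kept their call. That filter left their values and log2 fold changes as they were, so nothing is read from it. Under 7 of the alternatives, 1 to 5 of the 22 list counts moved by over 1.5 times.

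Limits are the 2 arrays per group, values near the lower end of the scale, where a log2 fold change understates a difference, and the names: many well-known root genes have no named probe set here. Array scaling cannot show whether total RNA per cell differed between the organs.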

Other observations

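Neighbouring genes were examined over the protein-coding gene order of the gene table. Of 422 pairs of adjacent genes in which both were called by at least 2-fold, 251 had the same direction (59.5%). The share was 52.2% for genes 2 places apart, 46.4% at 5, 52.7% at 20 and 50.8% at 100 places. Pairs share genes, so these shares are given without a test. There were 4 runs of 3 consecutive loci called by at least 4-fold in the same direction. AT1G52050, AT1G52060 and AT1G52070 were higher in roots, by 4.80 to 5.95, and AT2G43590, AT2G43600 and AT2G43610 by 2.60 to 5.20. AT2G29290, AT2G29300 and AT2G29310 were lower in roots, with log2 fold changes of -6.35 to -2.85, and AT4G15680, AT4G15690 and AT4G15700 with -3.65 to -2.05. Family members in such rows may cross-hybridise, which was not tested.

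Loci with the largest differences were shorter at the median. The median gene length was 1666 bp for the 122 loci at least 16-fold higher in roots and 1748 bp for the 187 at least 16-fold lower, beside 2111 bp for all 13217 nuclear loci. At 2-fold or more the medians were 2082 bp for loci higher and 2071 bp for loci lower in roots. By chromosome, the share of nuclear loci called higher in roots ran from 27.2% on chromosome 2 to 31.4% on chromosome 5, and the share called lower from 19.2% on chromosome 2 to 22.3% on chromosome 1.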
